A study of Homo sapiens with 18 samples.

Results

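Glucagon (GCG) and 3 genes that accompany it in pancreatic alpha cells, transthyretin (TTR) and the Iroquois homeobox genes IRX1 and IRX2, were followed through the differentiation of human stem cells towards beta-like cells. These are 4 of the 57808 genes in the deposited table of counts, taken by gene symbol. The table holds 18 libraries from the human embryonic stem cell line MEL1, in which 1 copy of the insulin gene carries a GFP reporter. The stages are undifferentiated cells (hPSC), definitive endoderm (DE, from which gut, liver and pancreas form) and beta-like cells made from stem cells (sBC) in stirred suspension, which were sorted into GFP+ and GFP- fractions. All 4 populations were read by RNA-seq. Total ribosome footprints (Ribo) were taken from hPSC and DE, and footprints pulled down through FLAG (IP-Ribo) from both of these and from GFP+ sBC. This makes 9 groups of 2 libraries. The hPSC and DE cells of all assays were labelled as carrying RPL22-FLAG, a tagged ribosomal protein. The GFP+ sBC of the IP-Ribo libraries had received RPL22-FLAG by lentivirus, and the sBC of the RNA libraries were labelled GFP+ or GFP- alone. All groups came from 1 cell line, and since no label ties the 2 libraries of a group to separate cultures, p-values measure the spread between these libraries, which may be technical.

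Glucagon is cut from a larger precursor, proglucagon, and is released by alpha cells to raise blood glucose. Alpha cells make it with the prohormone convertase PCSK2, while gut L cells cut the same precursor with PCSK1 into the incretin GLP-1. Transthyretin carries thyroxine and, through retinol-binding protein, retinol; it is best known from liver and choroid plexus, and islet alpha cells also make it. IRX1 and IRX2 are DNA-binding homeodomain proteins of a shared gene cluster that are found in alpha cells and little in beta cells of the adult islet. Stem-cell-derived endocrine cells often pass through a state with several islet hormones.

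In the RefSeq annotation of GRCh38.p14, GCG (ENSG00000115263.14) lies at chr2:162142882-162152247 on the reverse strand, and TTR (ENSG00000118271.9) at chr18:31591877-31598821. IRX2 (ENSG00000170561.12, chr5:2735635-2751677, reverse strand) and IRX1 (ENSG00000170549.3, chr5:3595832-3601403, forward strand) are 844 kb apart. The stretches just before the RefSeq gene starts of GCG, IRX1 and IRX2 are shown because the 3 genes rose together in sBC (given with their tests further on) while their upstream sequences differ in base composition. They run 5′ to 3′ on the gene's strand and end 1 base before the start, from chr2:162152248-162152397 for GCG, chr5:3595712-3595831 for IRX1 and chr5:2751678-2751797 for IRX2. Capitals mark TATAAA and TAAT on either strand in GCG and the dinucleotide CG in the other 2.
GCG: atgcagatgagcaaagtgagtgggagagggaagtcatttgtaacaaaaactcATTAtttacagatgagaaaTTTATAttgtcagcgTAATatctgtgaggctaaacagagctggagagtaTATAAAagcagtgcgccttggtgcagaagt
IRX1: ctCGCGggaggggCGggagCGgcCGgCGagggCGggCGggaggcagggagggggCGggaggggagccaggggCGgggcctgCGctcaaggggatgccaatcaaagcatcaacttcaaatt
IRX2: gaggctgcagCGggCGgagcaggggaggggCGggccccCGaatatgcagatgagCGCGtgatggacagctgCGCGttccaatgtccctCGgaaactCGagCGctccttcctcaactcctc

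The 250 bases before GCG had a GC content of 38.4%, against a median of 58.0% over 35116 upstream windows of the same length, and 2 CG dinucleotides, against a median of 11. IRX1 and IRX2 had 75.2% and 72.8% GC with 29 and 27 CG dinucleotides. The letters TATAAA (the TATA box) stood before GCG at positions -30 to -25 and, on the other strand, -79 to -74, and 10.7% of all windows held this motif on either strand. TAAT, the core that many homeodomain proteins bind, stood at -64 to -61 and, on the other strand, at -98 to -95 (47.4% of windows). The letters TGTTTNC, a forkhead core, were found in none of the 3 windows (15.5% of all windows), and neither IRX gene had TATAAA or TAAT in its window. These matches describe the letters alone and locate no bound factor.

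Library totals ran from 6.61 to 92.53 M counts (1 M is 1000000), with 79.77 to 92.53 M in RNA of hPSC and DE and 27.36 to 37.65 M in RNA of sBC. Intervals and detection limits given here cover counting error only. Nuclear protein-coding genes took 54.6% and 62.8% of the counts in IP-Ribo of GFP+ sBC and 40.5% in 1 Ribo library of DE, and 76.0% to 90.4% in the others. Levels are given as CPM, that is counts in 1000000 counts of the library total, and are not compared between genes, for which transcript lengths would be needed. INS, the gene of the reporter, had 1964 and 1220.3 CPM in RNA of GFP- sBC and 5148 and 5871 CPM in GFP+ sBC, and 0 counts in all 12 libraries of hPSC and DE. In the GFP sort its log2 fold change was 1.78 ± 0.41 (SE, edgeR adjusted p = 0.0749). INS passed the test under 7 alternatives, among them DESeq2 (adjusted p = 0.000743) and either GFP- library left out. It did not pass under others, among them library totals (edgeR adjusted p = 0.0595) and either GFP+ library left out.

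GCG was read in sBC only. It had 0 counts in all 12 libraries of hPSC and DE, by RNA, Ribo and IP-Ribo. A count of 0 allows up to 3 counts, which is 0.0324 to 0.454 CPM over all 18 libraries. In RNA of GFP+ sBC it had 1073373 and 756819 counts, or 36032 and 24523 CPM, which is 3.60% (95% Wilson interval 3.60 to 3.61) and 2.45% (2.45 to 2.46) of all counts. GFP- sBC had 721498 and 358953 counts, or 19163 and 13120.0 CPM. Both GFP- libraries lay below both GFP+ libraries, yet all 4 were of the same order.

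Against DE, GCG RNA was at least 1850000-fold higher in GFP+ sBC and at least 1020000-fold higher in GFP- sBC, taking 3 counts over the 2 DE libraries as the floor. Footprints of GCG in IP-Ribo of GFP+ sBC came to 368228 and 211572 counts (42159 and 27875 CPM), at least 313000-fold above IP-Ribo of DE. These IP-Ribo libraries, labelled GFP+, also held duct markers above their level in GFP+ RNA (given further on), and GCG was high in GFP- sBC too. The fraction is bulk RNA, so fewer cells with a transcript and less transcript per cell cannot be told apart.

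TTR was likewise high in sBC and at low counts in the earlier stages. In RNA it had 0 and 3 counts in hPSC and 28 and 22 counts in DE, all under 0.31 CPM. GFP- sBC had 3988 and 3025 CPM and GFP+ sBC 7071 and 4844 CPM. IP-Ribo gave 0 and 2 counts in hPSC, 6 and 4 in DE, and 75676 and 65014 counts (8664 and 8566 CPM) in GFP+ sBC. The ratio of GFP+ sBC to hPSC in RNA, resting on 3 counts in hPSC, was 327000 (95% counting interval 112000 to 1590000), and in IP-Ribo, resting on 2 counts, 188000 (52100 to 1550000).

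IRX1 was low but present in the early stages. Its RNA stood at 2.67 and 0.97 CPM in hPSC (213 and 83 counts), 1.32 and 0.59 CPM in DE (122 and 54 counts), 86.1 and 38.8 CPM in GFP- sBC and 59.9 CPM in both GFP+ libraries. The hPSC and DE libraries overlapped, and the GFP+ value lay between the 2 GFP- libraries. Total footprints came to estimated counts of 3.0 to 8.5 per library in hPSC and DE. IP-Ribo had 9.0 and 1.1 in hPSC, 4.0 and 9.3 in DE, and 74.2 and 123.9 (8.50 and 16.3 CPM) in GFP+ sBC.

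IRX2 had a different course, with a trough in endoderm. Its RNA was 21.5 and 19.7 CPM in hPSC, 9.43 and 8.12 CPM in DE, 84.4 and 59.4 CPM in GFP- sBC and 109 and 115 CPM in GFP+ sBC, and no 2 of these 4 groups overlapped. IP-Ribo showed the same order, with 3.78 and 4.34 CPM in hPSC, 2.73 and 1.79 CPM in DE and 9.84 and 21.2 CPM in GFP+ sBC. Total footprints were 3.33 and 1.53 CPM in hPSC and 0.70 and 1.07 CPM in DE. IRX2-DT, a transcript that starts beside IRX2 on the opposite strand, had 2.82 and 1.99 CPM in RNA of hPSC, 1.12 and 0.895 in DE, 23.1 and 17.1 in GFP- sBC and 28.6 and 37.8 in GFP+ sBC. This neighbour was chosen after its values were seen, and whether the counting used strand is not given in the sources used here.

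**Figure D1:**
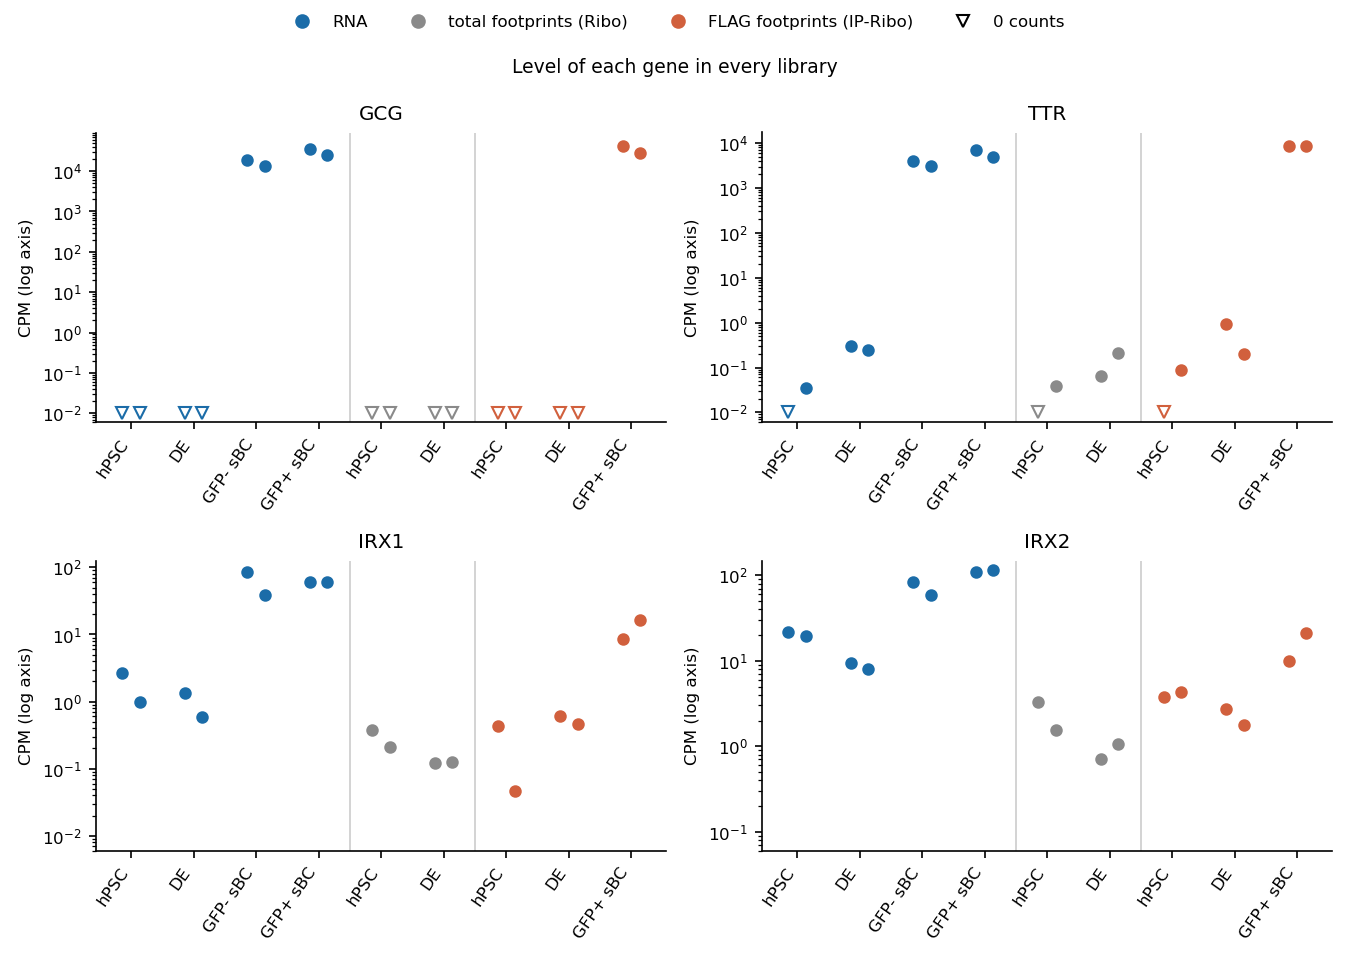
Level of GCG, TTR, IRX1 and IRX2 in each of the 18 libraries, in CPM on log axes, by assay (colour) and stage; each point is 1 library and open triangles, drawn near the bottom of the axis, are libraries with 0 counts. GCG and TTR go from 0 or under 1 CPM to 3025 CPM or more in sBC, IRX1 and IRX2 reach at most 115 CPM, and IRX2 alone has a clear level in hPSC that is lower in DE.

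The comparison of sBC with DE asked which transcripts rose on the way from endoderm to the endocrine stage. In RNA of GFP+ sBC against DE all 4 genes passed the test as higher (edgeR's quasi-likelihood test at an adjusted p under 0.05, by Benjamini-Hochberg over all genes). The background was wide: 60.7% of the 23321 genes tested passed, 29.9% of all as higher and 30.9% as lower. The log2 fold change was 13.89 ± 0.59 for TTR (SE of the fit, adjusted p = 6.78e-06), 5.44 ± 0.70 for IRX1 (0.000458) and 3.15 ± 0.26 for IRX2 (5.76e-05). For GCG the adjusted p was 1.45e-05. Higher genes made up 49.2% of the calls, and 64.9% when library totals alone set the scale, with the median of all genes then at 0.51 on the log2 scale; the changes of these 4 genes exceeded that shift.

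GFP- sBC against DE gave the same 4 calls, where 58.5% of genes passed (30.4% as higher and 28.1% as lower; higher genes were 51.9% of the calls, 69.4% with library totals). The log2 fold changes there were 13.13 ± 0.58 for TTR, 5.52 ± 0.70 for IRX1 and 2.52 ± 0.25 for IRX2. Both comparisons share the DE libraries. Against hPSC, where 61.3% of genes passed (30.4% as higher and 30.9% as lower; higher genes were 49.6% of the calls, 63.7% with library totals), GFP+ sBC were higher in all 4 genes, by 4.55 ± 0.66 for IRX1 and 1.95 ± 0.24 for IRX2 on the log2 scale. The stages also differ in depth and in the labelled genotype, and stage and library series cannot be told apart.

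Ribosome footprints gave the same calls. In IP-Ribo of GFP+ sBC against DE all 4 genes were higher, with 52.6% of 16018 genes called (27.8% as higher and 24.8% as lower; higher genes were 52.9% of the calls, 37.7% with library totals). The log2 fold change was 14.83 ± 0.83 for TTR (adjusted p = 3.13e-05), 5.10 ± 0.80 for IRX1 (0.00158) and 3.34 ± 0.42 for IRX2 (0.00055). Against hPSC, where 58.9% were called (30.4% as higher and 28.5% as lower), it was 5.64 ± 0.81 for IRX1 and 1.89 ± 0.39 for IRX2. These 4 calls in each of the 5 comparisons of sBC with an earlier stage held under every setting tried.

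Between hPSC and DE the RNA of IRX2 fell and that of TTR rose, and IRX1 was not called. In RNA, IRX2 fell by 1.16 on the log2 scale (SE 0.09, adjusted p = 5.27e-07) and IRX1 stood at -0.85 ± 0.76 (0.391). TTR rose by 3.87 ± 0.68 (0.000389), resting on 28 and 22 counts in DE against 0 and 3 in hPSC. GCG, at 0 counts in both, was not tested. In this comparison 75.6% of 20634 genes passed, 38.7% as higher and 36.8% as lower. IRX1 turned on 1 library: its value was 0.03 without hPSC replicate 1 and -1.40 (adjusted p = 0.0257) without hPSC replicate 2. With the replicate number as a block it was -0.82 (0.00333).

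In IP-Ribo of DE against hPSC, with 22.3% of genes called (9.78% as higher and 12.5% as lower), IRX2 fell by 1.45 (SE 0.41, adjusted p = 0.0423), a call that was lost without any one of the 4 libraries (adjusted p 0.0755 to 0.159). It was also lost with library totals (-0.89, 0.196), where higher genes were 78.5% of all calls against 43.8%. TTR was at 2.49 ± 1.08 (0.146; 3.51 and 0.0458 without DE replicate 2) and IRX1 at 0.54 ± 0.88 (0.701). In Ribo, with 34.1% called (17.2% as higher and 16.9% as lower), IRX2 stood at -1.02 ± 0.53 (0.19), while IRX1 and TTR did not pass the filter on low counts.

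The GFP sort asked which transcripts mark the cells with an active insulin reporter. None of the 4 genes passed the test between GFP+ and GFP- sBC (edgeR), where 2.43% of 19797 genes passed, 0.0808% as higher and 2.35% as lower. At an unadjusted p under 0.05 the count was also 0, and DESeq2 called none. GCG had a log2 fold change of 0.90 ± 0.45 (adjusted p = 0.509), TTR of 0.76 ± 0.40 (0.534), IRX2 of 0.63 ± 0.36 (0.566) and IRX1 of -0.08 ± 0.45 (0.954). For GCG, TTR and IRX2 both GFP+ libraries lay above both GFP- libraries in CPM, and for IRX1 they did not. A failed test with 2 libraries a side does not show that the fractions are alike.

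The 2 GFP- libraries were unlike each other. The share of counts from mitochondrial genes was 0.42% in GFP- replicate 1 and 4.35% in replicate 2, against 5.34% and 4.15% in GFP+ sBC, and the 2 differed in IRX1 by 86.1 to 38.8 CPM. Without GFP- replicate 1, IRX2 reached 0.95 (adjusted p = 0.0282) and IRX1 changed sign to 0.65 (0.109). Without GFP- replicate 2, IRX1 was -0.56 (0.038), and the number of genes called rose from 481 to 7815. GCG stayed between 0.56 and 1.24, and TTR between 0.43 and 1.03, over the libraries left out, with no call.

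**Figure D2:**
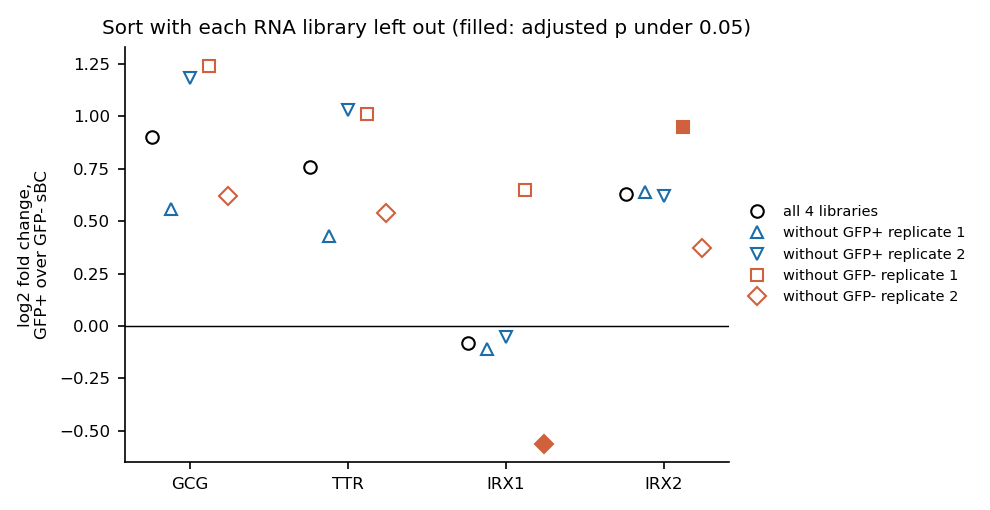
Log2 fold change of RNA in GFP+ over GFP- sBC for each gene, with all 4 libraries (circles) and with each library left out in turn; filled symbols have an adjusted p under 0.05. GCG and TTR stay above 0 and uncalled throughout, IRX1 runs from -0.56 to 0.65 with 1 or the other GFP- library left out, and IRX2 is called only without GFP- replicate 1.

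Markers of some other cells differed in the sort, where 2.35% of all genes were called lower in GFP+ sBC and 0.0808% higher. Of 7 listed duct, progenitor and acinar genes 3 were lower in GFP+ sBC. They were CFTR, the chloride channel of duct epithelium (-6.16 ± 0.51), SPP1 (-5.37 ± 0.54) and the progenitor factor SOX9 (-4.35 ± 0.39). The list's summed level was 1638 and 1656 CPM in GFP- and 216 and 367 CPM in GFP+ sBC. Of this, KRT19, which was not called, took 869 and 367 CPM in GFP- and 194 and 342 CPM in GFP+ sBC. The list's part in the values of the 4 genes was not tested. Of 11 listed alpha cell markers 0 passed (median log2 fold change 0.73, against 0.00 over all genes), among them the retinaldehyde dehydrogenase ALDH1A1 (0.73 ± 0.37) and the arginine transporter SLC7A2 (1.25 ± 0.42). Without GFP- replicate 2 some of these were called, ALDH1A1 (1.14) and SLC7A2 (1.68) among those higher. Calls over all genes also rose steeply in that fit, which holds 1 GFP- library, so they do not single out this list. Of 11 beta cell markers 1, the ER oxidoreductase ERO1B (2.16 ± 0.39), was called higher and lost its call without either GFP+ library. Of 5 listed genes of delta, PP and epsilon cells 1 was called, somatostatin (SST), the delta cell hormone, higher by 2.77 ± 0.34. HHEX (0.41 ± 0.38), LEPR (0.99 ± 0.39), PPY (0.93 ± 0.61) and GHRL (-0.93 ± 0.47) were not called. Of 5 mesenchyme genes 2 were lower, and of 9 tested hepatocyte and visceral endoderm genes 1 was. Of 7 genes of enterochromaffin-like cells 0 were called.

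Genes of the machinery that handles proglucagon were not called between the fractions with all 4 libraries. None of 6 prohormone processing genes passed in the sort (median 0.48). PCSK2 was at 0.61 ± 0.30, its chaperone SCG5 at 0.63 ± 0.32 and the carboxypeptidase CPE at 0.81 ± 0.33. Without GFP- replicate 2 some were called higher, CPE (0.94) among them, as calls over all genes also rose. None of 11 alpha cell and islet transcription factors passed (median 0.33), with INSM1 at 0.32 ± 0.31 and NEUROD1 at 0.59 ± 0.34. In the same fit without GFP- replicate 2 some factors were called higher, NEUROD1 (0.91) among them. None of the 3 other Iroquois family genes that could be tested passed. Among 8 glucagon family receptors tested, 2 were lower in GFP+ sBC, against 2.35% of all genes. They were the secretin receptor SCTR (-4.52 ± 0.71) and the PACAP receptor ADCYAP1R1 (-4.09 ± 0.64, lost without GFP+ replicate 2). The incretin receptor GIPR stood at 0.50 ± 0.34.

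**Figure D3:**
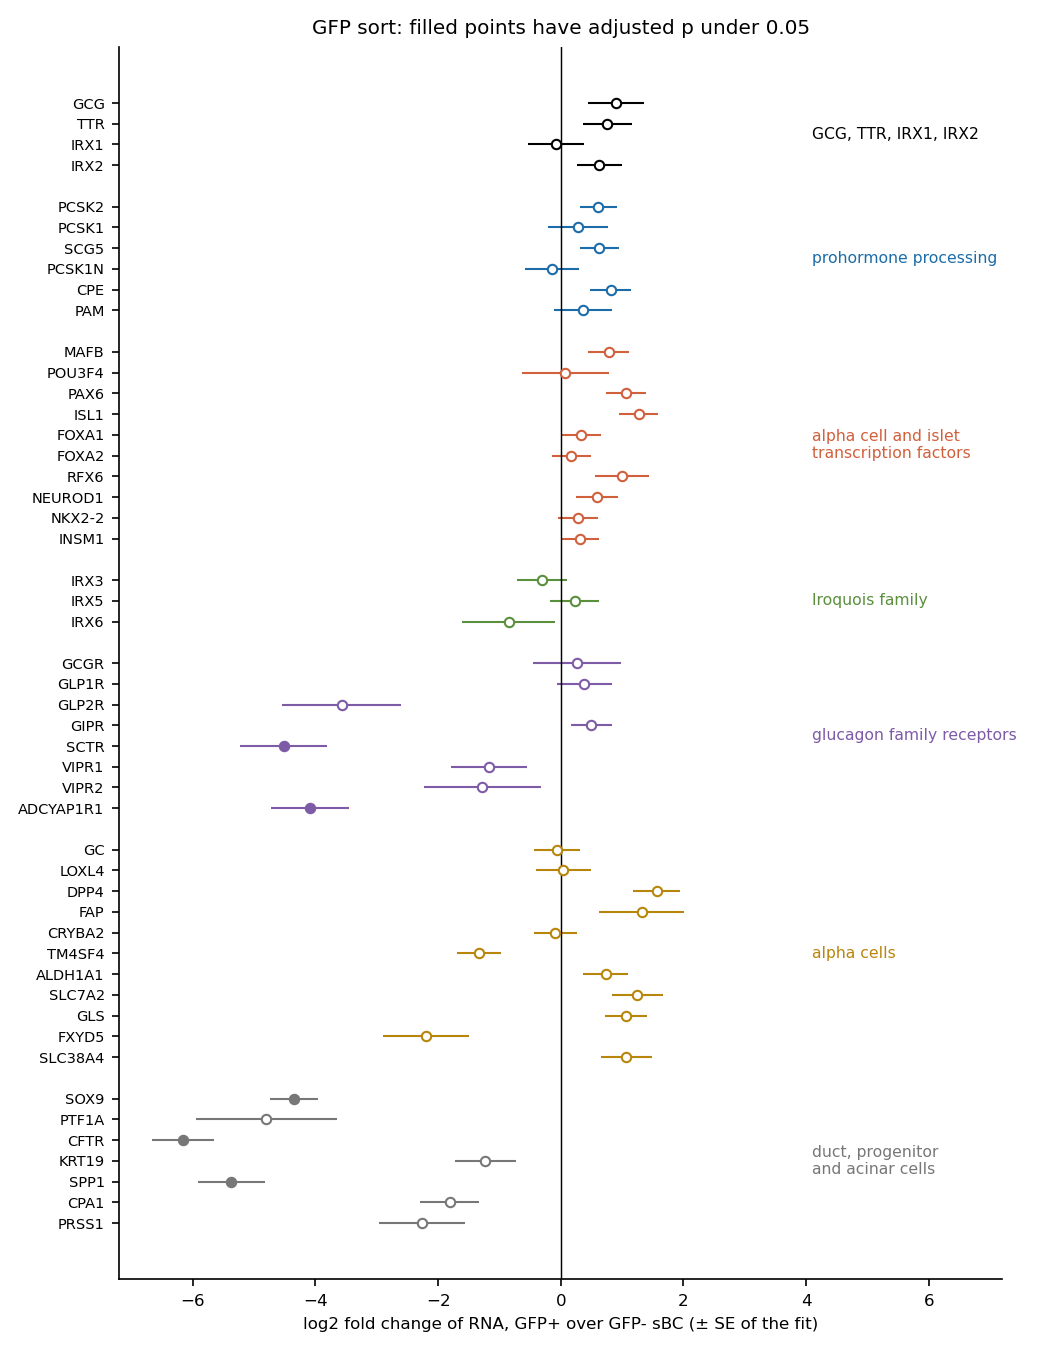
Log2 fold change of RNA in GFP+ over GFP- sBC with the standard error of the fit, for the 4 genes and members of 6 lists; filled points have an adjusted p under 0.05. The hormone, processing and transcription factor genes lie between about -1 and 1.5 with open symbols, and the called points are 3 duct genes and 2 receptors on the left.

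Against DE the processing genes were higher in sBC, as were the 4 genes. All 6 prohormone processing genes were higher in RNA of GFP+ sBC (median log2 fold change 7.05, against 0.00 over all genes): PCSK2 (9.70 ± 0.38), PCSK1 (9.04 ± 0.62), SCG5 (8.96 ± 0.32), the convertase inhibitor PCSK1N (5.14 ± 0.44), the amidating enzyme PAM (4.29 ± 0.45) and CPE (3.83 ± 0.26). In CPM, PCSK2 was 0.259 and 0.448 in DE, 266 and 289.5 in GFP- and 413 and 434 in GFP+ sBC. PCSK1, the convertase of L and beta cells, was 0.119 and 0.109 in DE, 39.6 and 107 in GFP- and 68.0 and 108 in GFP+ sBC, so both convertases of proglucagon were read. All 6 were higher in IP-Ribo as well, and over all genes 29.9% were higher in RNA and 27.8% in IP-Ribo.

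Of 11 alpha cell and islet transcription factors 10 were higher in RNA (median 6.03, share over all genes 29.9%). In IP-Ribo 9 were higher (share over all genes 27.8%). The median there was 6.84, or 6.07 with 2 genes at 0 in DE set to their bound. The zinc finger factor INSM1 rose by 12.17 ± 0.58 and RFX6, a factor of early endocrine cells, by 9.19 ± 0.60 in RNA. NEUROD1 had 0 to 1 count in DE RNA and 618 and 547 CPM in GFP+ sBC. FOXA2, already made in endoderm, was the one not called (-0.32 ± 0.19, or 0.20 with library totals).

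Of the 11 alpha cell markers 10 were higher and 1 lower in RNA against DE, where 29.9% of all genes were higher and 30.9% lower. The vitamin D-binding protein GC had 3 counts and 1 count in DE and 229.7 and 212 CPM in GFP+ sBC, and the lens protein gene CRYBA2 had 414 and 523 CPM. TM4SF4 was at 0 counts in DE and at 19.4 and 16.6 CPM in GFP+ sBC. The labels name these cells beta cells, and the alpha list summed to 3977 and 4937 CPM in GFP+ sBC, 2185 and 2917 in GFP- sBC and 103 and 114 in DE, while of 11 beta cell markers 9 were higher against DE. Alpha cell markers were thus read in both fractions.

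Within the Iroquois family the rise in sBC was not shared by all. Of the 5 other genes listed, IRX5, the neighbour of IRX3 in a second cluster, was higher against DE in RNA (2.99 ± 0.43) and in IP-Ribo (3.03 ± 0.97, adjusted p = 0.032, lost under 7 alternatives, each left-out library among them), while IRX3 was not called in either (0.37 ± 0.36 and 0.97 ± 0.52). One, the related Mohawk gene MKX, was lower, with 0.367 and 0.262 CPM in DE and 0 counts in GFP+ sBC. In CPM, IRX3 was 11.1 in both GFP+ libraries and IRX5 11.1 and 12.9.

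Among genes that answer to or travel with these hormones, 3 of 9 glucagon family receptors were higher and 3 lower in RNA of GFP+ sBC against DE, shares near those over all genes (29.9% and 30.9%). GLP1R, the GLP-1 receptor, rose by 6.79 ± 0.55 to 12.7 and 22.7 CPM and GIPR by 4.71 ± 0.25 to 29.8 and 30.7 CPM, and the VIP receptor VIPR2 fell by 6.19 on the log2 scale. Of 9 tested genes of thyroid hormone and retinol carriage 5 were higher, among them RBP4, the retinol-binding protein that TTR binds (5.70 ± 0.52), and the thyroid hormone receptor THRB (4.1 ± 0.43), and THRA was not called (0.17 ± 0.25, or 0.69 with library totals, adjusted p = 0.0351). RBP4 reached 12 and 8.55 CPM in RNA of GFP+ sBC.

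Other cells that make these proteins were looked for by their markers. For TTR, 10 hepatocyte and visceral endoderm genes summed to 3694 and 2812 CPM in GFP+ sBC, 4399 and 5355 in GFP- sBC and 249 and 227 in DE, of which SERPINA1, which alpha cells also express, took 1926 and 1329, and 2365 and 4062 CPM. Of these 10 genes 8 were called higher and 1 lower in RNA of GFP+ sBC against DE (29.9% and 30.9% of all genes). The apolipoprotein gene APOA1 had 487 and 593 CPM in GFP+ and 1214 and 559.9 in GFP- sBC, APOA2 440.1 and 293 CPM in GFP+ sBC, alpha-fetoprotein (AFP) 293 and 205 and APOB 253 and 159. Albumin (ALB) was at 78.7 and 82.7 CPM in GFP+ and 35.7 and 28.7 in GFP- sBC, and AHSG had 0 and 2 counts in each fraction. For choroid plexus, 5 genes summed to 48.0 and 65.3 CPM in GFP+ sBC. For GCG, 5 genes of gut L and other enteroendocrine cells summed to 36.4 and 37.9 CPM in GFP+ and 34.9 and 36.4 CPM in GFP- sBC, and INSL5, which marks distal L cells, had 0 counts in every RNA library. The part of such cells in the values of GCG and TTR was not tested.

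Before footprints are set against RNA, the cells behind both must be compared. Some markers of other cells stood in IP-Ribo of GFP+ sBC far above their level in RNA of GFP+ sBC, and others near it. CFTR had 202 and 380.4 CPM in IP-Ribo, 10 and 10.7 CPM in RNA of GFP+ sBC and 461 and 1032 CPM in RNA of GFP- sBC. SPP1 had 91.3 and 53.6 CPM, against 3.39 and 1.46, and 111 and 89.3. The mesenchyme gene SPARC had 55.8 and 93.1 CPM, against 5.47 and 2.37, and 114 and 84.8. SOX9, with 13.2 and 25.0 CPM, lay nearer to RNA of GFP+ (7.39 and 9.53) than of GFP- sBC (186 and 156), and so did COL1A1, a collagen of mesenchyme, with 2.98 and 5.83 CPM against 3.02 and 3.67, and 48.2 and 7.64. The duct, progenitor and acinar list summed to 779 and 1085 CPM in IP-Ribo, between RNA of GFP+ and of GFP- sBC. The keratin gene KRT19 alone took 469 and 621 CPM of this sum. The mesenchyme list summed to 238 and 268 CPM, against 162 and 194, and 602 and 322. All 6 tested duct, progenitor and acinar genes and 4 of 5 mesenchyme genes were higher in IP-Ribo than in RNA. With library totals these counts were 4 and 2. The hepatocyte and visceral endoderm list summed to 5696 and 6984 CPM in IP-Ribo. It had 3694 and 2812 CPM in RNA of GFP+ and 4399 and 5355 in RNA of GFP- sBC. On TMM scaling, of its 10 genes 8 were higher in IP-Ribo than in RNA of GFP+ sBC and 1 lower (median log2 fold change 2.09). In CPM not all of those called higher lay above RNA. APOB had 121 and 124 CPM in IP-Ribo against 253 and 159 in RNA of GFP+ sBC, and ALB 71.2 and 70.9 against 78.7 and 82.7. AFP overlapped, with 255 and 260.2 against 293 and 205. APOA1, APOA2 and SERPINA1 lay above RNA in both IP-Ribo libraries. These genes were named here after their values were seen. The part of these lists in the following values, that of TTR among them, was not tested.

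Within GFP+ sBC, 56.7% of 22210 genes differed between IP-Ribo and RNA, 28% as higher and 28.8% as lower, and 3 of the 4 genes did. On TMM scaling GCG was higher in IP-Ribo by 1.61 ± 0.35 (log2, adjusted p = 0.00825) and TTR by 1.91 ± 0.37 (0.0013), while IRX2 stood at -1.51 ± 0.26 (0.000587) and IRX1 at -0.92 ± 0.54 (0.166). The median of all genes was -0.10. These values depend on the scale. With library totals the median of all genes was -1.47 and higher genes were 17.0% of the calls against 49.3%. GCG was then at 0.21 (0.526) and TTR at 0.53 (0.176), neither called, and IRX2 at -2.86 (9.51e-06) and IRX1 at -2.28 (0.0047), both lower.

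The plain levels show the same. The mean CPM of GCG in IP-Ribo was 1.16 times that in RNA, with overlapping libraries, and 1.72 times when counts of nuclear protein-coding genes made the total. For TTR the ratios were 1.45 and 2.12, and both IP-Ribo libraries lay above both RNA libraries. For IRX2 they were 0.138 and 0.197, and for IRX1 0.207 and 0.297, from 74.2 to 160.9 footprint counts per library. Relative to the median gene, GCG and TTR lay above and IRX2 below it on either scale, and without RNA replicate 2 of GFP+ sBC the call for GCG was lost (1.31, adjusted p = 0.0591).

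Of 6 prohormone processing genes 4 were higher in IP-Ribo than in RNA on TMM scaling (median 1.41), SCG5 by 1.97 ± 0.21, CPE by 1.88 ± 0.30, PCSK1 by 1.68 ± 0.22 and PCSK2 by 1.14 ± 0.22; with library totals 1 was higher, SCG5 (0.59, adjusted p = 0.032), 2 were lower and PCSK2 was at -0.23 (0.392). Of 11 alpha cell markers 7 were higher (median 1.29; 4 without IP-Ribo replicate 1; 3 higher and 4 lower with library totals). Over all genes 28.8% were lower on TMM scaling and a similar share higher, and with library totals most calls were lower. ALDH1A1 (2.49 ± 0.21), GC (2.43 ± 0.26) and TM4SF4 (2.79 ± 0.29) were higher on both scales, and CRYBA2 was at 0.43 ± 0.19, and at -0.95 with library totals.

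Of 11 alpha cell and islet transcription factors 7 were lower and 1 higher on TMM scaling (median -1.25), where 28.8% of all genes were lower. With library totals 10 were lower and 0 higher. Most calls over all genes were lower on that scale too, so the count of 10 does not by itself single out this list. INSM1 stood at -3.25 ± 0.41, with 510.2 and 523 CPM in RNA and 18.3 and 23.7 CPM in IP-Ribo, NKX2-2 at -2.76 ± 0.19 and PAX6 at -1.91 ± 0.27, and NEUROD1 was not called (-0.33 ± 0.20, or -1.71 and called with library totals). The 1 called higher was RFX6, named after its values were seen, which was at -0.60 with library totals and lost its call without GFP+ RNA replicate 1 or either IP-Ribo library. IRX5 was lower (-1.71 ± 0.51, adjusted p = 0.0157, lost without RNA replicate 2 or IP-Ribo replicate 2). The receptors GLP1R (-1.84 ± 0.53, lost without RNA replicate 2 or IP-Ribo replicate 1) and GIPR (-2.01 ± 0.35) were lower, and of the 2 tested ligands of the family the incretin GIP was higher by 3.23 ± 0.52. The thyroid hormone receptor THRA was at -3.83 ± 0.29. Some of these values rest on few footprint counts in IP-Ribo of GFP+ sBC. Counts were 12.8 and 9.6 for IRX5, 8 and 23 for GLP1R, 21 and 26 for GIPR and 6 and 10 for THRA.

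**Figure D4:**
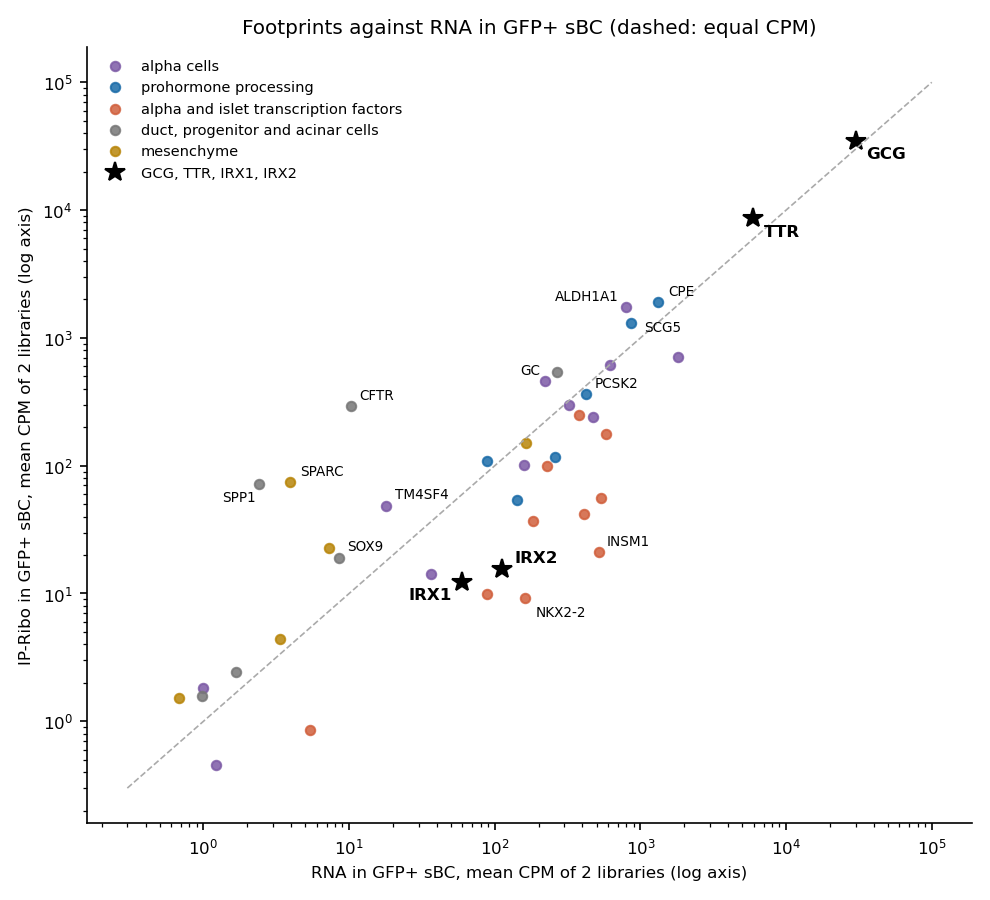
Mean CPM in IP-Ribo (vertical) against mean CPM in RNA (horizontal) of GFP+ sBC, 2 libraries each, on log axes, for the 4 genes (stars) and members of 5 lists; the dashed line marks equal CPM. GCG (1.16 times) and TTR (1.45 times) lie just above the line, IRX1, IRX2, INSM1 and NKX2-2 below it, and CFTR, SPP1 and SPARC far above it.

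Whether the ratio of footprints to RNA changed between stages could be asked for 3 genes, since GCG had no counts before sBC. Against DE, where 14.2% of 22210 genes changed (8.84% as higher and 5.32% as lower; higher genes were 62.4% of the calls, or 25.8% with library totals), the change was -0.83 ± 1.01 for IRX1 (adjusted p = 0.693), -0.29 ± 0.40 for IRX2 (0.743) and 0.52 ± 0.81 for TTR (0.791, resting on 6 and 4 footprint counts in DE). Against hPSC, with 15.0% called (11.0% as higher and 3.98% as lower; higher genes were 73.4% of the calls, or 56.9% with library totals), it was 0.91 ± 1.01 for IRX1 (0.647) and -0.29 ± 0.36 for IRX2 (0.699), and TTR, with at most 3 counts per library in hPSC, was not read. None of these passed (edgeR), nor at an unadjusted p under 0.05, nor with DESeq2. Leaving out IP-Ribo GFP+ replicate 2 moved IRX2 against hPSC to -1.04 (0.0461). The CPM ratio of IRX2 was 0.197 in hPSC, 0.257 in DE and 0.138 in GFP+ sBC, from 18 to 160.9 footprint counts per library.

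The 4 genes were also compared by their course over the 9 groups, as a description over group means that share libraries and depth. GCG had 0 counts in every group of hPSC and DE, and TTR had a mean of at most 0.555 CPM there. The correlations of these 2 genes thus rest mostly on the contrast of those groups with sBC. A gene absent before sBC and high in sBC scores high with them by that alone. The Pearson correlation of mean log2 CPM was 0.99 between GCG and TTR, 0.967 between GCG and IRX1, 0.949 between IRX1 and TTR, 0.912 between IRX1 and IRX2, 0.848 between GCG and IRX2 and 0.787 between IRX2 and TTR. IRX2, with its level in hPSC, stood furthest from GCG. Among the 13349 genes that passed the filter and had a symbol and a log2 CPM averaging 0 or more over the groups, the 5 with the course most like GCG were INS, AGT, DACH1, PCSK2 and SERPINA1 (r 0.9993 to 0.997). For TTR they were DDC, NDNF, A1CF, SNAP25 and PARP9, for IRX1 AMPD3, INSM1, RAB26, THSD7A and YIF1A, and for IRX2 GNAO1, PDZD2, APBA1, SARM1 and CPLX1, the last with r from 0.9902 to 0.9804. A correlation above 0.99 was shared by 22 genes for GCG, 15 for TTR, 2 for IRX1 and 1 for IRX2.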

How the data were processed

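Per the labels' protocols, ribosomal RNA was removed with RNase H, and ribosomes were footprinted with RNase I with no cycloheximide added. The submitters' processing notes list, with no version, Bowtie, Salmon, cutadapt, DESeq2 and UMI-tools, and the build GRCh38; the annotation release, the role of each tool by assay and the use of strand are not given in the sources used here. The authors deposited estimated counts (expected counts) per gene, and 16.8% to 31.3% of a library's values were not whole; they were rounded. Of 57808 identifiers 57030 (98.7%) matched the table of gene names. Upstream sequences and gene positions are RefSeq's on GRCh38.p14, whose promoter table held 3 of the 4 genes.

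The test was edgeR 4.0.16's robust quasi-likelihood F test in R 4.3.3 (TMM scaling, filterByExpr, Benjamini-Hochberg over all genes tested, adjusted p under 0.05). Fits held 4 RNA libraries for the sort and for DE against hPSC, 8 for the other RNA comparisons, 6 for IP-Ribo, 4 for Ribo and 12 for IP-Ribo against RNA, whose change between stages is the interaction of assay and stage. A standard error is that of the fit. Levels are CPM, counts in 1000000 of the library total. Folds against 0 counts are lower bounds against 3 counts over the group. The fits were tested on simulated counts. Replicates were compared and none agreed within sampling noise (chi-square per gene 10.2 to 1204.0).

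The 4 genes and all lists (6 of pathways, 11 of cell type markers) were chosen with earlier results of these data known. Counts and medians cover whole lists, of which 2 genes are not reported here by name or plotted. The 4 genes are always named; of each list and comparison the text names at most 3 called genes with the largest change and 2 uncalled ones with the highest level, or any gene of a list of up to 7, and the 5 genes nearest each member in course (Pearson correlation of log2 CPM, prior count 2, over the 9 group means). The alternatives were RLE size factors in edgeR, no filter, a filter that asks 2 libraries for 10 counts and 1 CPM, DESeq2 1.42.0, the replicate number as a block, each library left out and all 8 RNA libraries in 1 fit. Chosen after seeing the data were nuclear protein-coding genes alone, library totals as the scale, and for Ribo a block with the numbers of DE exchanged. The replicate numbers were not taken as pairs. Figures were drawn with matplotlib 3.10.9.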

Additional observations from a re-analysis of the deposited data

How the results depend on the processing

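Over 106 single-gene results and 1211 values under alternatives, 1136 kept their direction and their side of the threshold, 33 gained a call, 29 lost one and 13 changed sign. For GCG and TTR in the comparisons of sBC with an earlier stage it was 0 of 110 that changed. In the sort, 0 of the 4 genes were called, and 1 without either GFP- library. Over the libraries left out IRX1 ran from -0.56 to 0.65 and IRX2 from 0.37 to 0.95. In RNA of DE against hPSC 2 genes were called, and 1 with the stricter filter, under which TTR was not tested. IRX1 there ran from -1.53 to 0.03 over libraries left out. In IP-Ribo of DE against hPSC 1 was called, and 0 with RLE, the replicate block, library totals or (range 0 to 1) a library left out; IRX1 ran from -0.37 to 2.80 over libraries left out. For the change in the ratio of footprints to RNA against hPSC 0 were called, and 1 without IP-Ribo GFP+ replicate 2; IRX1 ran from -0.25 to 3.05 over libraries left out. Against DE, IRX2 ran from -0.72 to 0.15 over libraries left out (0.00 without IP-Ribo DE replicate 1), and TTR was -0.03 with library totals and -0.56 without IP-Ribo DE replicate 2. With library totals FOXA2 was 0.20 in RNA of GFP+ sBC against DE, and in IP-Ribo against RNA PCSK2 was -0.23, RFX6 -0.60 and CRYBA2 -0.95. The cause of these changes was not tested.

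Same-numbered libraries deviated together by correlations of -0.23 to 0.18, so the numbers were not used as pairs. With the replicate block IRX1 in the sort was 0.05 (adjusted p = 0.985). The block moved the genes called in the sort from 481 to 1258, and for Ribo from 5276 to 3649, or 5086 with the numbers of DE exchanged. Other counts of called genes that moved by over 1.5 times were those of the sort (1263 with DESeq2 or all 8 RNA libraries, 1596 with no filter, 384 to 7815 over libraries left out), GFP- sBC against DE (13644, 8919 to 16832 over libraries left out) and RNA of DE against hPSC (15591, 6561 with all 8 libraries). IP-Ribo of DE against hPSC went from 3573 to 1097 to 3144 over libraries left out, and Ribo from 5276 to 1011 with library totals and 73 to 5782 over libraries left out. The ratio of footprints to RNA went from 3144 to 5198 with library totals and 4765 with DESeq2 against DE (1443 to 3592 over libraries left out), and from 3327 to 5203 with DESeq2 against hPSC (1748 to 3275). Where a library is left out, its group's lone library is assumed to vary like the others. Depth limits what can be said of GCG and TTR before sBC, at 0 to 28 counts per library, and of IRX1 footprints.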
